A study of Mus musculus with 6 samples.

Results

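The acrosome and sperm-egg fusion genes are 10 genes of sperm formation, taken by symbol from a deposited table of 54532 genes in mouse testis cell RNA. They are Acr, Acrbp, Acrv1, Spam1, Spaca1, Spaca3, Zpbp, Zpbp2, Izumo1 and Dpy19l2. All 10 symbols were found, once each, and all 10 genes are annotated as protein-coding. RNA came from suspended mouse testis cells, labelled STRA8+, in 3 conditional knockout libraries (genotype label: knockout) and 3 control libraries (genotype label: Cre). The labels do not name the deleted gene, the driver of Cre, the strain or the age, nor say whether libraries came from separate animals, so each p-value is read against a library spread that may be technical only. The series title names BCAS2 and hnRNPH1, both splicing proteins, and is about meiotic recombination. The comparison of knockout with control asks here how genes of a later step, acrosome formation, stood in these cells.

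The acrosome is a large vesicle, built from Golgi membranes, that spreads as a cap over the nucleus of the round spermatid. Its enzymes and binding proteins are released before the sperm fuses with the egg, whose coat is the zona pellucida. The acrosome's membrane carries the proteins that later join sperm and egg. Genes of the acrosome are typically transcribed in pachytene spermatocytes or in haploid spermatids and are often translated later than they are transcribed. In the mouse, Acr transcription is known to begin in pachytene spermatocytes, while Acrv1 and Spam1 are known as genes of round spermatids. The start of the other members is not given here as background, and whole-suspension libraries do not place a transcript in a stage.

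Promoters of 9 of the 10 members were found among RefSeq promoter sequences (GRCm38.p6, 250 bases before to 50 bases after a gene start). They are shown for Izumo1, which kept the largest share of its control level with the 3 knockout libraries pooled. They are also shown for Acrv1, among the members with the fewest knockout reads, and for Spam1, which had no knockout read. Capitals mark TGACG or its reverse complement, the core of the cyclic AMP response element bound by CREM, a regulator of haploid transcription, and GTGTGT or its reverse complement, a repeat studied in the Acrv1 promoter.
Izumo1, chr7:45621561-45621860, plus strand: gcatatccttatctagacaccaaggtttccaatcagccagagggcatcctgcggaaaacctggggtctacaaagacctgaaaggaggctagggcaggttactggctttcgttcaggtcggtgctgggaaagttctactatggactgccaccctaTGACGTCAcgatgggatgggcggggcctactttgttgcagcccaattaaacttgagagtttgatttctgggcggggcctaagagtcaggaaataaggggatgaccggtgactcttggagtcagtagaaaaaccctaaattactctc
Acrv1, chr9:36692970-36693269, plus strand: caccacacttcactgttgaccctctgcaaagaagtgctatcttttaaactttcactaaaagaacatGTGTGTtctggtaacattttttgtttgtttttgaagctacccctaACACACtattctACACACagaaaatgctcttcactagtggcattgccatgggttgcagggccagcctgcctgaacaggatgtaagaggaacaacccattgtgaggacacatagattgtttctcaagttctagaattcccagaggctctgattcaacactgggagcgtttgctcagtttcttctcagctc
Spam1, chr6:24790938-24791237, plus strand: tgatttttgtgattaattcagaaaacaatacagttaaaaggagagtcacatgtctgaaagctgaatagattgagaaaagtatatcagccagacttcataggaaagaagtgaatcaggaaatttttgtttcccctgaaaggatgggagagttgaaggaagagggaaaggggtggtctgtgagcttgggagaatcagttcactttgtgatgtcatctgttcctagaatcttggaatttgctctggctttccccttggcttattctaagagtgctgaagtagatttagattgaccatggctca
The full element TGACGTCA was found in the promoter of Izumo1 alone among the 9 members, and in 1.79% of all 32851 promoters. It begins 96 bases before the Izumo1 start. The core TGACG, searched on both strands and contained in the full element, was found in 6 of the 9 members (Spaca1, Acrbp, Izumo1, Dpy19l2, Spaca3 and Zpbp2) and in 20.8% of all promoters. GTGTGT on either strand was found in Acrv1 alone, at 3 places, and in 17.4% of all promoters. CAGTTG, a core of MYB binding, was found in Zpbp2 alone and in 13.7% of all promoters, and TATAAA in 0 members and 13.6% of all promoters. Spam1 held none of these letters in this window.

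The members are spread over 6 chromosomes (mm10, coordinates as deposited). Acr lies at chr15:89568326-89574585 on the plus strand, Acrbp at chr6:125049689-125063267 (plus) and Acrv1 at chr9:36693220-36698843 (plus). Spam1 lies at chr6:24791188-24801048 (plus), Spaca1 at chr4:34024874-34050191 (minus) and Spaca3 at chr11:80858365-80867814 (plus). Zpbp and Zpbp2 share chromosome 11 but lie far apart, at chr11:11279626-11462408 (minus) and chr11:98551097-98558665 (plus). Izumo1 lies at chr7:45621811-45628823 (plus) and Dpy19l2 at chr9:24557047-24696293 (minus). Levels cover all exons of a gene, from 3 merged exons in Acrv1 to 22 in Dpy19l2.

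Before the members are described, a few facts of the libraries bear on them. The reads behind the values totalled 14770320 to 15204127 per knockout library and 14532453 to 16963019 per control library. Levels are the authors' FPKM, fragments per kilobase of gene and per 1000000 of a library divisor; that divisor was 1.37 to 1.42 times the library's reads in the knockout and 0.691 to 0.774 times in the controls. Bcas2 had 4.78, 4.38 and 5.40 FPKM in the knockout libraries, against 19.8, 19.3 and 20.5 FPKM in the control libraries, and Hnrnph1 had 129, 156 and 136 FPKM against 61.2, 67.5 and 62.7 FPKM. Stra8, the gene of the cell label, had 125, 137 and 136 FPKM in the knockout and 11.5, 22.6 and 17.0 FPKM in the controls. The labels' extraction text speaks of retinas, and 0 of 8 photoreceptor genes reached the filter of a mean of 1 FPKM. Knockout replicate 2 held the highest level of 6 of the 9 members with any knockout read, and control replicate 1 the highest of 9 of 10 in the controls.

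All 10 genes were lower in the knockout, and for every member the highest knockout library lay far below the lowest control library. Together they gave 0.00272%, 0.00339% and 0.00310% of the reads in the knockout libraries, against 0.272%, 0.243% and 0.222% in the control libraries. Of the members, 10 were called lower by limma, a linear model fitted across all genes on log2(FPKM + 0.5) with adjusted p under 0.05 as the threshold. The background is broad: of the 16791 genes tested 86.6% were called in either direction and 50.4% lower, and in 51.1% the groups did not overlap with the knockout lower. Of genes tested, 8.47% were called lower with a log2 fold change as low as that of Izumo1, the member that fell least. That cut-off was taken from the members, so all 10 meet it by definition and the share does not test them. The members' median log2 fold change was -7.27, beside -0.41 for all genes tested. With Spam1 at its bound of 3 knockout reads the median was -7.49. That bound is a ratio of scaled reads without the added 0.5, so it is not on the scale of the other members. Apart from Spaca1 and Zpbp, whose knockout levels alone would have sufficed, the members passed the filter on low values through their control levels. With no filter 10 of 10 were still called lower, beside 32.8% of all genes then tested. In whole suspensions, fewer cells of a type and less RNA per cell cannot be told apart.

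**Figure D1:**
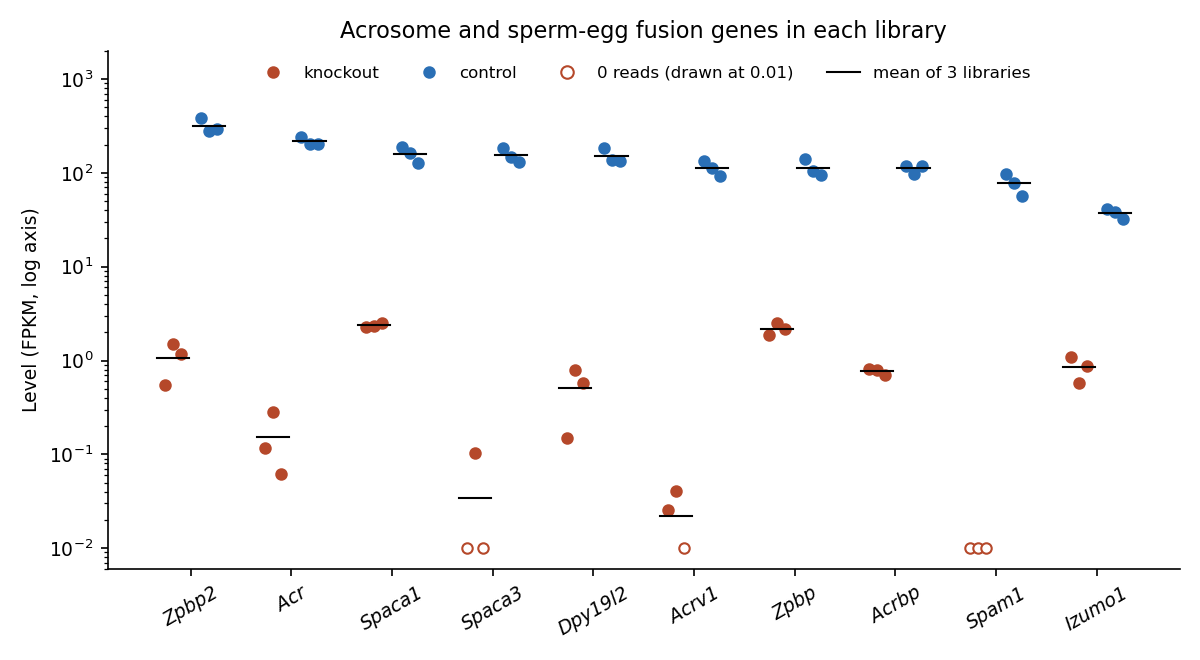
Level of each member in each library (FPKM, logarithmic axis), knockout left of control, with the mean of 3 libraries as a line and libraries without reads drawn as open circles at 0.01. Control libraries lie between 32.6 and 382 FPKM and knockout libraries at 2.52 FPKM or less.

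In the acrosomal matrix, Acr encodes acrosin, the best known protease of the acrosome. Acr had 0.118, 0.284 and 0.0616 FPKM in the knockout libraries, against 244, 203 and 204 FPKM in the control libraries. The knockout values rest on 4, 9 and 2 reads, so the order among them carries little weight. The log2 fold change was -8.39 ± 0.148 (SE), with a limma adjusted p of 1.8e-09. Acrbp encodes the proacrosin binding protein, which holds the acrosin precursor in the granule. It had 0.804, 0.799 and 0.707 FPKM in the knockout libraries, against 118, 98.0 and 119 FPKM in the control libraries, with little spread within either group. Its log2 fold change was -6.46 ± 0.111 (SE), with a limma adjusted p of 1.7e-09. Acrv1 encodes SP-10, a protein of the acrosomal vesicle. It had 0.0253, 0.0407 and 0 FPKM in the knockout libraries, from 2, 3 and 0 reads, against 134, 112 and 93.0 FPKM in the control libraries. Its log2 fold change was -7.75 ± 0.144 (SE), with a limma adjusted p of 2.1e-09.

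Spam1 encodes PH-20, a hyaluronidase anchored in the sperm membrane that opens the matrix around the egg. It had 0, 0 and 0 reads in the knockout libraries, against 96.9, 78.0 and 56.9 FPKM in the control libraries, from 2156, 2271 and 1553 reads. Against a floor of 3 reads over the knockout group, its level was at least 3515-fold lower. This was the only member without a knockout read. Spaca1 encodes a membrane protein of the acrosome that is needed in the mouse for the vesicle to spread. It had 2.29, 2.32 and 2.51 FPKM in the knockout libraries, against 188, 163 and 127 FPKM in the control libraries. The knockout libraries were closer to each other than the control libraries were, and the log2 fold change was -5.78 ± 0.145 (SE), with a limma adjusted p of 8.6e-09. Spaca3 encodes a lysozyme-like protein of the acrosome. It had 0, 0.104 and 0 FPKM in the knockout libraries, all from 2 reads of knockout replicate 2, against 184, 149 and 131 FPKM in the control libraries, with a limma adjusted p of 2.1e-09.

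The zona binding proteins ZPBP and ZPBP2 are paralogs of the acrosomal matrix that shape the sperm head. Zpbp had 1.85, 2.52 and 2.16 FPKM in the knockout libraries, against 139, 104 and 95.3 FPKM in the control libraries. Zpbp2 had 0.549, 1.50 and 1.18 FPKM in the knockout libraries, against 382, 282 and 291 FPKM in the control libraries. The pair therefore changed order: Zpbp2 was the higher in each control library and Zpbp in each knockout library. The log2 fold changes were -5.39 ± 0.162 (SE) for Zpbp and -7.70 ± 0.238 (SE) for Zpbp2, with limma adjusted p of 2.3e-08 and 2.6e-08; the difference between the paralogs was not tested.

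Izumo1 encodes the sperm protein that binds JUNO on the egg and is required for fusion. It had 1.08, 0.578 and 0.872 FPKM in the knockout libraries, against 41.4, 38.5 and 32.6 FPKM in the control libraries, the lowest control level of the 10. Its log2 fold change of -4.83 ± 0.167 (SE), with a limma adjusted p of 4.9e-08, was the smallest fall. Dpy19l2 encodes a protein of the inner nuclear membrane that anchors the acrosome to the nucleus. It had 0.148, 0.790 and 0.575 FPKM in the knockout libraries, against 184, 139 and 132 FPKM in the control libraries. Knockout replicate 1 stood low here, with 11 reads against 55 and 41, and the log2 fold change was -7.28 ± 0.255 (SE), with a limma adjusted p of 5.4e-08.

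In the order of control levels, Zpbp2 stood first at 318 ± 55.0 FPKM (SD, n = 3) and Acr next at 217 ± 23.3 FPKM, and neither overlapped the gene after it. Spaca1, Spaca3 and Dpy19l2 followed at 159 ± 30.8, 155 ± 26.7 and 152 ± 28.2 FPKM and overlapped each other. Dpy19l2 overlapped Acrv1 by its lowest library, and Acrv1, Zpbp and Acrbp, at 113 ± 20.3, 113 ± 23.2 and 112 ± 12.0 FPKM, overlapped each other. Spam1 at 77.2 ± 20.0 FPKM did not overlap Acrbp, the gene before it, though its highest library exceeded the lowest of Acrv1 and Zpbp. Izumo1 at 37.5 ± 4.52 FPKM stood below all others without overlap.

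The share of the control level that remained in the knockout ran from about 2% down to no reads. It is given as knockout reads over control reads, each pooled over the 3 libraries and scaled by the authors' divisors, with exact 95% intervals that cover counting error only. Izumo1 kept 2.28% (1.93 to 2.67), Zpbp 1.96% (1.80 to 2.12) and Spaca1 1.51% (1.32 to 1.71). Acrbp kept 0.693% (0.589 to 0.811), and Zpbp2 and Dpy19l2 kept 0.339% (0.279 to 0.408) and 0.333% (0.273 to 0.402). Acr kept 0.0711% (0.0398 to 0.117), Spaca3 0.0220% (0.00266 to 0.0795) and Acrv1 0.0196% (0.00637 to 0.0458), while 0 reads of Spam1 allow up to 0.0285%.

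Taken library by library, the first 3 genes did not overlap Acrbp, nor did Acrbp overlap the genes after it. In single knockout libraries Izumo1, Zpbp and Spaca1 lay between 1.45% and 2.90% and Acrbp between 0.637% and 0.723%. Zpbp2 lay between 0.175% and 0.478%, Dpy19l2 between 0.0990% and 0.529% and Acr between 0.0287% and 0.132%, so Dpy19l2 and Acr overlapped. Knockout replicate 2 weighed on the low values: without it Acr kept 0.0421%, Acrv1 0.0116% and Spaca3 0% of the control level. Spaca3 kept 0.0336% without knockout replicate 1. Leaving out that library, Zpbp kept 2.11% and Izumo1 1.95%, so the order of Izumo1 and Zpbp depended on it. As shares of all reads in place of the authors' scaling, the remaining shares were 4.30% for Izumo1, 3.69% for Zpbp, 2.84% for Spaca1 and 0.134% for Acr.

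**Figure D2:**
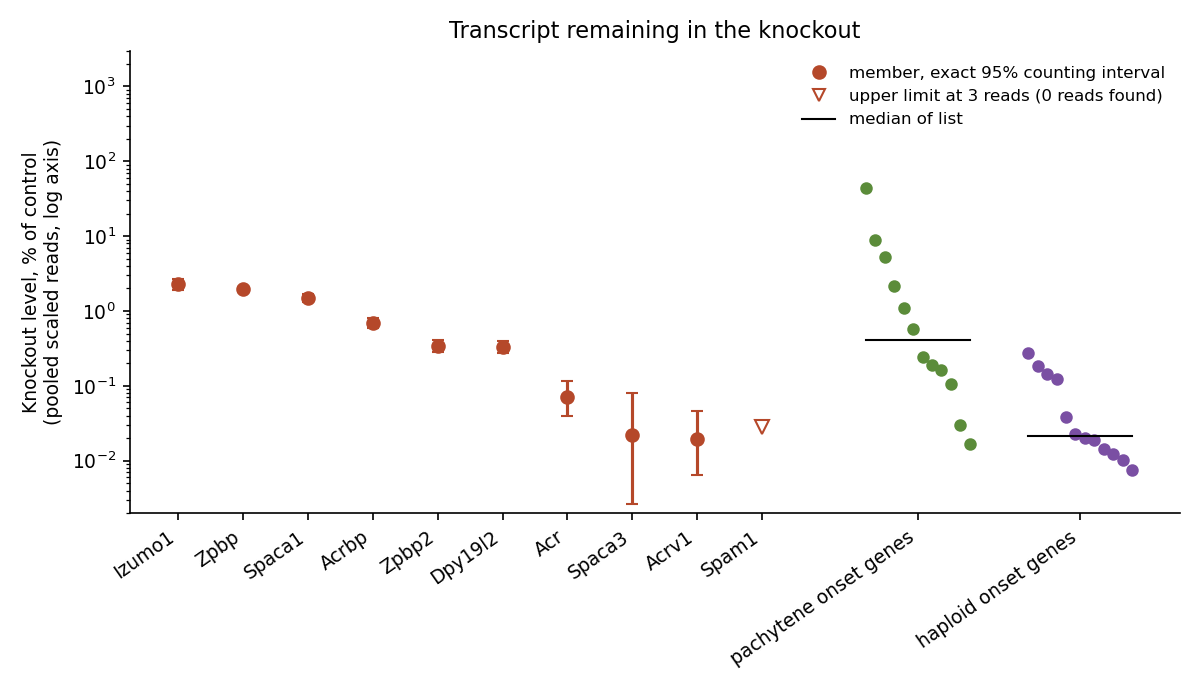
Knockout level as a percentage of control (logarithmic axis) for the members with exact 95% counting intervals. Beside them are 12 genes listed with a pachytene onset and 12 listed with a haploid onset, each list with its median. Izumo1, Zpbp and Spaca1 lie above 1.5%, and Acr, Spaca3 and Acrv1 lie within the range of the haploid onset genes.

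These shares were set beside genes listed by their generally reported start in spermatogenesis, which these libraries do not check. The 12 genes listed as starting in pachytene spermatocytes had a median share of 0.409% of the control level. They ran from 0.0166% (Pgk2, a testis glycolytic kinase) to 43.4% (Mybl1, a transcription factor of the pachytene stage). The 12 genes listed as starting in haploid spermatids kept from 0.00749% (Prm1, a protamine) to 0.278% (Tssk6, a spermatid kinase), with a median of 0.0213%. As log2 fold changes the pachytene genes ran from -10.28 (Pgk2) to -1.18 (Mybl1) and the haploid genes from -12.56 (Prm1) to -7.34 (Catsper1, a sperm calcium channel subunit). Izumo1, Zpbp, Spaca1, Acrbp, Zpbp2 and Dpy19l2 each kept more than all 12 haploid genes, while Zpbp2 and Dpy19l2 kept more than 11 of the 12 without knockout replicate 2. Acr, Acrv1 and Spaca3 lay inside both ranges. Acr, known to start before the haploid stage, kept more than 8 of the 12 haploid genes, or 7 without knockout replicate 2. It also kept more than 2 of the 12 pachytene genes. Acrv1, known from round spermatids, kept more than 5 of the haploid genes, and Spaca3 more than 6, or 0 without knockout replicate 2. These ranks compare pooled shares without their intervals and rest on 15, 5 and 2 knockout reads of Acr, Acrv1 and Spaca3. The limit of 0.0285% for Spam1, also known from round spermatids, lies below the pooled shares of the haploid genes from Tnp1 (0.0387%) up to Tssk6 (0.278%). The counting interval of Tnp1 (0.0206 to 0.0663) includes that limit. The place of Spam1 beside Tnp1 and the haploid genes with smaller shares is therefore undetermined. The lists overlap from 0.0166% to 0.278%, so a share in that range does not tell the stages apart. Without knockout replicate 2 the lowest pachytene share was 0.00757% (Pgk2) and the lowest haploid share 0% (Prm2, Smcp and Catsper1).

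Marker lists of stages and cell types were read beside the members, and their part in the result was not tested. The haploid onset genes were called lower in 12 of 12 cases, none of them without knockout reads, and gave 0.000979% to 0.00139% of the reads in knockout libraries and 1.38% to 1.46% in control libraries. The pachytene onset genes were called lower in 12 of 12 cases, with 0.0308% to 0.0394% of the reads in the knockout and 0.971% to 1.05% in the controls; after FPKM were set to the same sum in each library, Mybl1 was not called. Spermatogonial markers were called higher in 9 of 10 cases, with 0.173% to 0.210% of reads in the knockout and 0.0121% to 0.0219% in the controls. The remaining marker, Gfra1, was called lower as deposited (log2 fold change -1.02) but was not called with FPKM brought to equal sums. Sertoli cell markers were called higher in 10 of 10 cases, at 0.221% to 0.406% of reads in the knockout and 0.0254% to 0.0611% in the controls. Of all genes tested, 36.2% were called higher and 50.4% lower. Of 10 early prophase genes 5 were called higher and 3 lower, of 6 Leydig cell genes 1 and 3, of 5 macrophage and blood genes 2 and 0, and of 2 peritubular and endothelial genes none. These counts moved with the scaling: at equal FPKM sums per library, 8 early prophase genes were called higher and 2 lower, 1 and 1 of the Leydig cell genes, 3 and 0 of the macrophage and blood genes, and 2 and 0 of the peritubular and endothelial genes.

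The make-up of the acrosome signal also differed between the groups. Spaca1 and Zpbp made up 30.2 ± 3.78% and 27.3 ± 0.795% of the summed FPKM of the 10 genes in the knockout (SD, n = 3), against 10.9 ± 1.03% and 7.73 ± 0.364% in the controls. Izumo1 gave 15.8%, 6.47% and 10.8% in the knockout libraries and 2.42%, 2.81% and 2.54% in the control libraries. Zpbp2, the leading gene of the controls, gave 13.1 ± 4.56% in the knockout and 21.9 ± 1.08% in the controls. Acr, next in the controls, gave 1.72%, 3.17% and 0.764% in the knockout libraries and 14.3%, 14.8% and 15.9% in the control libraries. Control libraries resembled each other more closely than knockout libraries did in the shares of Spaca1, Zpbp2, Izumo1 and Acr. These shares were not tested, and the summed level behind them was 6.86, 8.94 and 8.06 FPKM in the knockout libraries, against 1711, 1368 and 1283 FPKM in the control libraries.

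**Figure D3:**
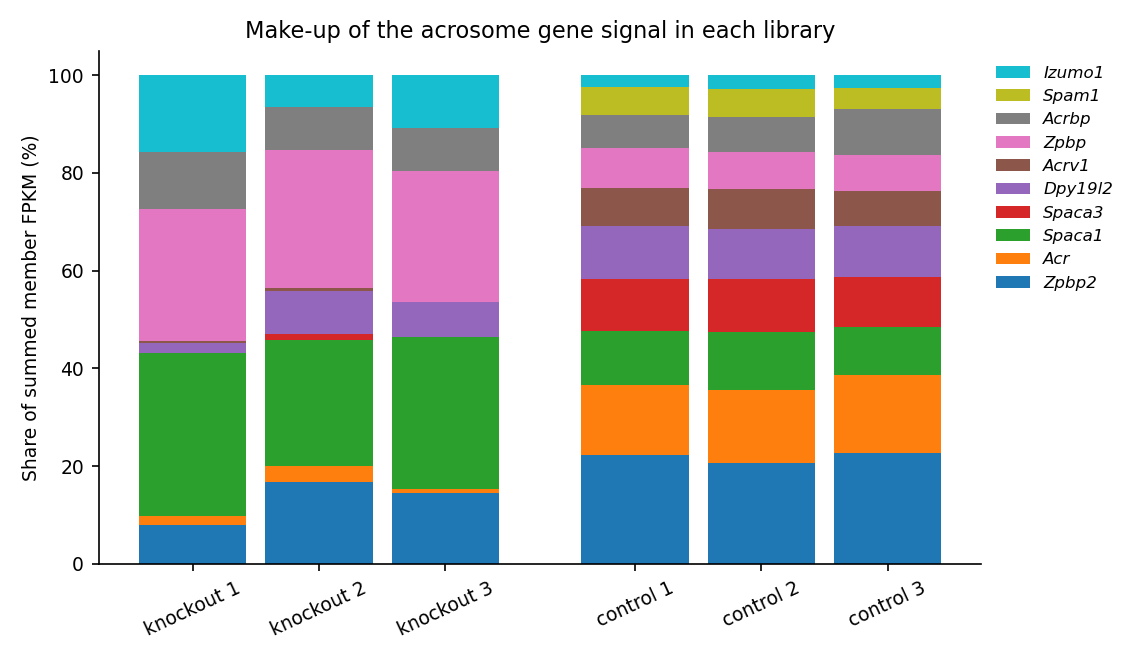
Share of each member in the summed FPKM of the 10 genes (percent), per library, knockout left of control. Spaca1 (green) and Zpbp (pink) fill most of the knockout bars, and Zpbp2 (blue) and Acr (orange) lead in the control bars.

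Some genes share exons with members, and the sources used here do not say how reads in shared exons, on either strand, were counted. Izumo1 shares 654 of its 2992 exonic bases with Rasip1, an endothelial gene on the same strand. Rasip1 had 2.40, 1.81 and 2.10 FPKM in the knockout libraries, against 1.24, 1.71 and 2.10 FPKM in the controls, and limma did not call it as deposited, with a log2 fold change of 0.26; under the other 3 scalings it was called higher. The knockout reads numbered 70, 35 and 54 for Izumo1 and 166, 117 and 139 for Rasip1, both highest in replicate 1 and lowest in replicate 2. Whether reads of Rasip1 entered the Izumo1 values was not tested. Spata48, on the opposite strand, shares 223 exonic bases with Zpbp and had 0.257 ± 0.0932 FPKM in the knockout and 49.1 ± 7.38 FPKM in the controls. Cypt4 lies inside Dpy19l2 but shares 0 exonic bases with it. It had 0, 0.157 and 0 FPKM in the knockout libraries, against 445, 384 and 387 FPKM in the control libraries, so gene and host were both low in the knockout. The antisense gene 4930557K07Rik shares 90 exonic bases with Acrbp, and the transcript Gm44597, on the same strand, shares 975. They had 96 and 16 reads in the knockout, where Acrbp had 158, and 67 and 31 in the controls, where Acrbp had 12925. Whether their reads entered the Acrbp values was not tested.

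Noncoding genes next to 2 members were low as well. On the other strand 1700027I24Rik is separated from Acrv1 by 30 bases, and it had 0.0237 FPKM in the knockout and 2.97 FPKM in the controls on average. The antisense gene 4930507D10Rik, 64 bases from Spaca3, had 0 reads in the knockout and 704 in the controls, a level at least 414-fold lower against the floor of 3 reads. Both were called lower by limma.

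Paralogs of the members gave mixed calls. Of the Dpy19 family, whose other members are expressed widely, Dpy19l3 rose to 2.34 ± 0.189 FPKM in the knockout, against 1.02 ± 0.203 FPKM in the controls, and Dpy19l4 to 6.65 ± 0.699 FPKM against 2.94 ± 0.401 FPKM. Their limma adjusted p were 0.00087 and 0.00013, and both were called higher under the 4 scalings tried. Dpy19l1 fell to 9.79 ± 1.02 FPKM in the knockout, against 24.9 ± 3.83 FPKM in the controls, but was not called with FPKM brought to equal sums. Among hyaluronidases, Hyal2, a broadly expressed enzyme, rose to 8.38 ± 1.25 FPKM in the knockout, against 2.23 ± 0.763 FPKM in the controls (limma adjusted p of 0.00011). Hyal5, a sperm hyaluronidase, had 1 knockout read and fell to 0.00761 ± 0.0132 FPKM, against 95.9 ± 20.0 FPKM in the controls. Hyal4 had 0.00942 FPKM in the knockout and 3.32 FPKM in the controls and was also called lower, while Hyal1 and Hyal3 were below the filter.

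In the lysozyme family, to which SPACA3 belongs, 3 of 4 tested paralogs were called lower, beside 50.4% of all genes tested. The testis genes Lyzl1, Lyzl4 and Lyzl6 had 0.0195, 0.0118 and 0.0945 FPKM in the knockout and 103, 65.6 and 153 FPKM in the controls, and all 3 were called lower. Lyz2, the lysozyme of macrophages, had 136, 38.0 and 47.2 FPKM in the knockout libraries, against 25.1, 48.1 and 28.3 FPKM in the control libraries. The groups overlapped and limma did not call it as deposited (adjusted p of 0.090), though it was called higher under the other 3 scalings. Lyz1 was below the filter.

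A wider set of acrosome and fusion genes was read from the same fit, in which 50.4% of all genes tested were called lower. Apart from Vps54, Pick1 and Smap2, the tested genes named from it passed the filter on low values through their control levels. Of 15 other genes of the acrosome's contents and membrane, 15 were called lower, with a median log2 fold change of -7.39. Zp3r (named for a proposed role as a zona receptor), Spaca4 and Spaca9 had 0.0228, 0.0699 and 0.773 FPKM in the knockout and 115, 133 and 295 FPKM in the controls. Of 10 other genes needed or proposed for gamete fusion, 10 were called lower, with a median of -6.03. The Izumo1 paralogs Izumo2 and Izumo3 had 0.0228 and 0.0130 FPKM in the knockout and 109 and 107 FPKM in the controls. Llcfc1, which encodes the fusion factor SOF1, had 0 knockout reads and 241 ± 22.3 FPKM in the controls, a level at least 3703-fold lower against the floor of 3 reads.

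Genes of acrosome building and anchoring were more mixed, with a median of -4.90. Of 22 tested, 19 were called lower, 1 higher and 2 not called, beside 50.4% of all genes tested called lower. Actl7a, an actin-like protein of the spermatid head, had 0 knockout reads and 187 ± 11.8 FPKM in the controls. Ccin, a cytoskeletal protein of the sperm head, and Fam71f2 had 0.0170 and 0.477 FPKM in the knockout and 118 and 439 FPKM in the controls. Vps54, a subunit of a Golgi tethering complex, rose to 12.7 ± 1.26 FPKM in the knockout, against 5.38 ± 0.385 FPKM in the controls, with a limma adjusted p of 2.4e-05 and the same call under the 4 scalings tried. Pick1 and Smap2, which act in vesicle traffic, were the 2 genes not called as deposited. Both were called higher under each of the other scalings tried. The scaling moved this list: at equal FPKM sums per library, 5 of the 22 were called higher and 17 lower. The remaining listed gene, Actl7b, is listed at 0 in all 6 libraries.

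**Figure D4:**
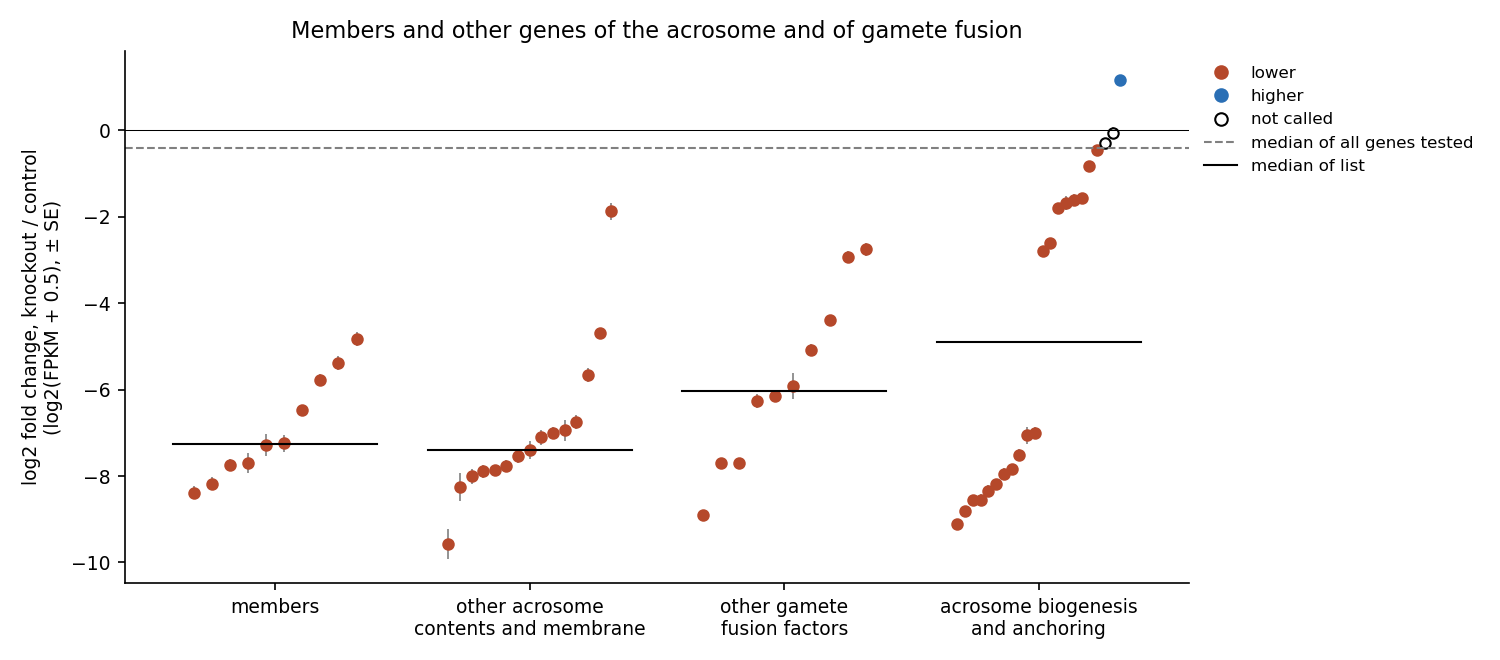
Log2 fold change, knockout over control, on the log2(FPKM + 0.5) scale with moderated standard errors, for the members and 3 further lists, with list medians and the median of all genes tested. The members lie between -8.39 and -4.83, and Vps54 is the point called higher.

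The protein-coding genes closest in pattern to the members were 4930435E12Rik, Lyzl4, Hyal6, Sel1l2 and Zdhhc25. Closeness was the root mean square difference, over the 6 libraries, between a gene's centred log2 level and the members' mean, and it ran from 0.0645 for 4930435E12Rik to 0.0748 for Zdhhc25. Lyzl4 and Hyal6 belong to the gene families of Spaca3 and Spam1. On average Lyzl4 had 0.0118 FPKM in the knockout and 65.6 FPKM in the controls, and Hyal6 had 0.0470 FPKM in the knockout and 71.0 FPKM in the controls. A constant is added to FPKM before log2, so genes with almost no knockout reads lie near it in the knockout. Their closeness then rests mostly on control level. Knockout reads numbered 1 for Lyzl4, 2 each for 4930435E12Rik, Sel1l2 and Zdhhc25, and 10 for Hyal6. These genes kept 0.0176% to 0.0662% of the control level, below the median of 0.339% for members with knockout reads. Spaca3 and Acrv1 also lay in that range. The role of gene family was not tested.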

How the data were processed

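RNA was measured in 3 knockout and 3 control libraries, grouped and numbered by their titles. The authors deposited FPKM per gene, made with HISAT2 2.0.5 and mm10, per the submitters' processing notes; the sources used here name no counter, annotation, strand setting or treatment of multi-mapping reads. FPKM times gene length came out as whole reads for 100% of nonzero values (within 0.01 read), which gave depth and counting intervals; no molecular identifiers are described. Exons are from GENCODE M21, where all 10 members had the deposited coordinates (1-based).

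Genes averaging 1 FPKM or more were tested with limma 3.58.1 (R 4.3.3, mean-variance trend) on log2(FPKM + 0.5) for knockout minus control, adjusted by Benjamini-Hochberg over all genes tested. This scale understates the change of low genes. The script was tested on simulated libraries. Python 3.11.15, pandas 2.3.3, scipy 1.17.1 and matplotlib 3.10.9 made tables and figures. Members, lists and motifs were chosen with earlier results of these data known. Besides members and paralogs, the text names the 3 genes with the smallest p and any called higher in each of 3 acrosome lists, the extremes of the stage lists by log2 fold change, and the 5 nearest profiles. Neighbours, Gfra1, Tnp1, Tssk6, Prm2, Smcp, Pick1, Smap2 and Actl7b were named after their values were seen. Limma voom on the recovered reads called 14451 genes. Hyalp1 is not analysed here.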

Additional observations from a re-analysis of the deposited data

How the results depend on the processing

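The call of lower held for 10 of 10 members in the fit as reported and in the 16 alternatives, with log2 fold changes of -5.49 to -3.75 for Izumo1, the member that fell least, and a largest adjusted p of 5.6e-06 (Dpy19l2). The fitted size of members near 0 moved most: for Spam1 it ran from -12.76 with limma voom to -5.93 with quantile normalization, and from -9.56 at a pseudocount of 0.1 to -6.26 at 1. Over all genes tested, the median change (log2) rose by 1.12 with FPKM rescaled to sum to 1000000, by 0.94 with quantile normalization and by 0.83 with reads per 1000000, and the called genes then split into 9109 higher and 6084 lower, 8745 and 6187, and 8483 and 6517, against 6075 and 8462 as deposited. Under these 3 scalings 5, 3 and 4 of the other acrosome and fusion genes were called higher, against 1 as deposited, and 42, 41 and 42 lower, against 44. A filter at a mean of 5 FPKM left 8547 genes called (3227 higher, 5320 lower) because fewer genes were tested. With the replicate number as a block 14294 genes and 10 members were called. Same-numbered libraries had deviations correlated at -0.12, -0.05 and -0.04. No pairing by number was seen, though values from so few libraries cannot exclude it. Depth limits the members with the fewest knockout reads, Spam1, Spaca3, Acrv1 and Acr, to 0, 2, 5 and 15 reads over 3 libraries.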
